A study of Homo sapiens with 12 samples.

Results

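The 9 transcripts described here encode enzymes that supply cells with deoxynucleotides and pyrimidines: RRM1, RRM2, TYMS, TK1, DUT, DCK, SAMHD1, CAD and DHODH. They were chosen by gene symbol from the deposited count table, which lists 58735 genes, and all 9 were found and had enough counts to be tested. RNA was measured in 12 libraries of Ovcar8, an established human high-grade serous ovarian cancer line, in 4 groups of 3. Cells of the first group carried CCNE1 overexpression and the short hairpin shTMLHE #1 (shTMLHE 1 cells below), and cells of the second carried CCNE1 overexpression and a different hairpin, shTMLHE #2 (shTMLHE 2 cells). The third group carried CCNE1 overexpression alone (CCNE1 cells), and the remaining group was the control. CCNE1 encodes cyclin E1, a partner of the kinase CDK2 at the start of DNA replication, and TMLHE encodes the first enzyme of carnitine synthesis. The constructs were delivered by lentivirus and transduced cells were kept by selection in puromycin at 3 µg/ml. The labels do not give the promoter of the CCNE1 construct, whether CCNE1 cells carried a control hairpin, or whether lines were clones. Nothing in them states whether the 3 libraries of a group came from separate cultures, so all p-values below measure the spread between these libraries, which may be technical.

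Cells make DNA precursors by several routes. Ribonucleotide reductase, built from the RRM1 and RRM2 subunits, removes an oxygen from ribonucleoside diphosphates, while thymidine kinase and deoxycytidine kinase salvage deoxynucleosides. CAD and DHODH build the pyrimidine ring, DUT destroys dUTP and provides the substrate of thymidylate synthase, and SAMHD1 breaks deoxynucleoside triphosphates down. Several of these genes are classical targets of E2F factors, which cyclin E and CDK2 help to free from RB, and demand for their products peaks in S phase.

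Transcript levels of CCNE1 averaged 1269 ± 49.0 CPM (a count relative to the counts of its library, scaled between libraries by TMM, the trimmed mean of M-values) in shTMLHE 1 cells, 847.1 ± 21.2 CPM in shTMLHE 2 cells, 1001 ± 34.0 CPM in CCNE1 cells and 33.1 ± 1.28 CPM in control cells (SD, n = 3 each). TMLHE averaged 0.956 ± 0.286 CPM in shTMLHE 1 cells, 0.482 ± 0.242 CPM in shTMLHE 2 cells, 15.7 ± 2.69 CPM in CCNE1 cells and 16.5 ± 1.62 CPM in control cells. Both genes therefore followed the labels in all 12 libraries, which held between 14054101 and 21457503 counts. Of 12 markers of serous and simple epithelium, PAX8 (69.9 to 150.1 CPM as group means), KRT8 (2412 to 4006 CPM), KRT18 (869 to 2572 CPM), KRT7, MSLN and FOLR1 (3.79 to 20.1 CPM) were present. EPCAM, CDH1 and WFDC2 were low (at most 3.74 CPM), WT1 had 0 to 12 and KRT19 0 to 15 counts a library, and MUC16 had none in any. KRT7 averaged 790.1 CPM in shTMLHE 1, 862.8 in shTMLHE 2, 1177 in CCNE1 and 265.5 in control cells, and MSLN 292.1, 138.6, 367.4 and 529.6 CPM in the same order of groups. Summed markers of leukocytes lay between 0.942 and 3.42 CPM per library. Fibroblast markers summed to 1535 to 1628 CPM in shTMLHE 1 cells, 1257 to 1297 CPM in shTMLHE 2 cells, 611 to 641 CPM in CCNE1 cells and 900.2 to 968 CPM in control cells, mostly COL1A1, with DCN at 0 throughout. The mean GC content of the counted transcripts was 51.6 to 51.9% in shTMLHE 1 libraries, 49.9 to 50.04% in shTMLHE 2 libraries, 52.8 to 52.9% in CCNE1 libraries and 53.1 to 53.3% in control libraries. Mitochondrial transcripts held 5.23 to 5.53% of counts in shTMLHE 1, 2.87 to 2.99% in shTMLHE 2, 3.13 to 3.20% in CCNE1 and 4.06 to 4.32% in control libraries, with no overlap between groups. Transcript composition by GC content and the mitochondrial share thus moved with the groups. The part of the mitochondrial share in the results below was not tested, and that of GC content was addressed by a repeat fit that took out each library's trend of counts on GC content and gene length (GC correction below).

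Upstream sequences of the 9 genes were taken from RefSeq (GRCh38.p14), which gave 14 windows of 250 bases ending before an annotated start. The letters CCAAT, on either strand, were found in windows of 6 of the 9 genes (7 of 14 windows), against 32% of all 35116 windows. The E2F letters TTTGGCGC, TTTCCCGC, TTTGCCGC or TTTCGCGC, on either strand, were found for TYMS and DUT only, in 2 of 14 windows, against 2.79% of all windows. The window before RRM1 (chr11:4094435-4094684, + strand), which holds no annotated exon, is shown whole because RRM1 rose with CCNE1 as DUT did, the pair with the largest rises of the 9, and short stretches are shown around matches of 4 other genes. These are RRM2 (chr2:10122636-10122665, + strand), TK1 (chr17:78187111-78187140, - strand, given as transcribed), DUT (chr15:48332153-48332182, + strand) and TYMS (chr18:657603-657632, + strand). Within their windows, annotated exons of the same gene cover 250 bases for RRM2, 181 for TK1, 94 for DUT and 49 for TYMS. These stretches may therefore lie in transcribed sequence. Capitals mark CCAAT or its complement in RRM1, RRM2 and TK1, and the E2F letters or their complement in DUT and TYMS. A match is a description of letters and no evidence of a bound site, and a window without a match says only that these letters are not in it.
RRM1: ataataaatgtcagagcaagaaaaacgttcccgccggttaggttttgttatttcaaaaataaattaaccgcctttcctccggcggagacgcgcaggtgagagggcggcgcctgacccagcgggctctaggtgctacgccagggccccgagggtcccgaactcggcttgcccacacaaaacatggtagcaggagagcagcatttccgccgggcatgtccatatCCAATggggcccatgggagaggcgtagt
RRM2: catggcacagCCAATgggaagggccggggc
TK1: gccgggcgctgATTGGccccatggcggcgg
DUT: tgGCGGGAAAtttcggtTTTGGCGCgctcc
TYMS: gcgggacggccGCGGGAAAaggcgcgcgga

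With CCNE1 overexpression, 5 of the 9 transcripts were higher and 2 were lower than in control cells (edgeR, adjusted p under 0.05), where 44.2% of all 15378 tested genes changed, 25.1% higher and 19.1% lower. RRM1, DUT, DCK, TK1 and RRM2 rose, CAD and DHODH fell, and TYMS and SAMHD1 did not pass. The median log2 fold change of the 9 was 0.38, against 0.05 over all tested genes. With shTMLHE 1, none of the 9 was higher and 5 were lower than in CCNE1 cells (edgeR, 60.7% of all genes changed, 30.4% higher and 30.3% lower), and the median of the 9 was -0.54 against 0.03 over all genes. None was higher at an unadjusted p under 0.05 or by DESeq2 either, but 4 were called higher when libraries were scaled by their total counts in place of TMM (library totals below). With shTMLHE 2, 2 were higher and 5 were lower than in CCNE1 cells (73% changed, 36.8% higher and 36.2% lower), and the median was -0.31 against 0.03. The shares of all genes called in the hairpin comparisons are close to 5 of 9 and 7 of 9, so the number of changed transcripts there is not itself a result. The hairpin comparisons share the CCNE1 libraries, which also enter the comparison with control.

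**Figure D1:**
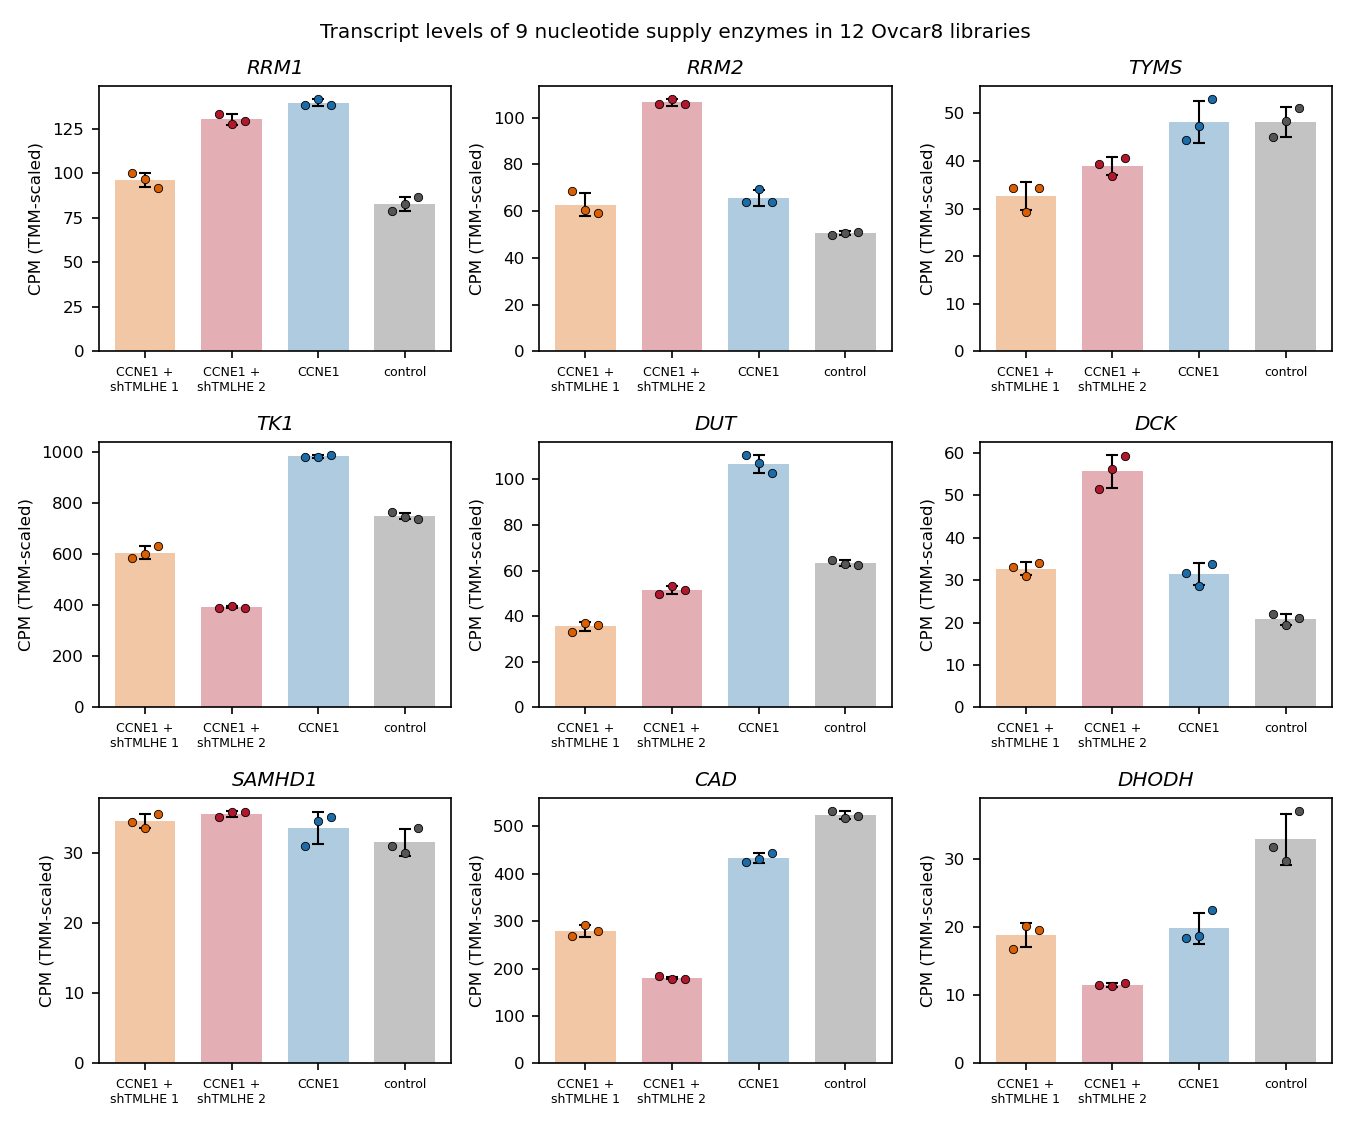
Transcript levels of the 9 enzymes in CPM (vertical axes, linear and starting at 0) for shTMLHE 1, shTMLHE 2, CCNE1 and control cells. Points are libraries, bars are means and error bars are SD (n = 3 each). TK1 and DUT were highest in CCNE1 cells, RRM2 and DCK in shTMLHE 2 cells, and CAD and DHODH in control cells.

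RRM1, at chr11:4094707-4138876 in GRCh38 with GENCODE 29, encodes the large subunit of ribonucleotide reductase, which holds the catalytic and regulatory sites. Its levels were 100.1, 96.9 and 91.9 CPM in shTMLHE 1 cells and 133, 128 and 129.5 CPM in shTMLHE 2 cells, against 138, 142 and 139 CPM in CCNE1 cells. Control cells had 79.0, 82.6 and 86.5 CPM. No library of any group overlapped another group. RRM1 was 1.69-fold higher in CCNE1 than in control cells (log2 0.76 ± 0.05 SE, edgeR adjusted p = 1.74e-15). It fell with shTMLHE 1 relative to CCNE1 cells (log2 -0.54 ± 0.05, edgeR adjusted p = 1.73e-12), and the log2 difference was -0.10 ± 0.05 with shTMLHE 2, which missed the threshold (edgeR adjusted p = 0.0529). With library totals the shTMLHE 1 value was -0.14. The shTMLHE 2 value was 0.43 with library totals and -0.55 after GC correction, past the threshold in both fits, so its size and direction depend on these settings.

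RRM2, at chr2:10120698-10131419, encodes the small subunit that carries the tyrosyl radical and limits the activity of the enzyme over the cell cycle. Its levels were 68.5, 60.5 and 59.4 CPM in shTMLHE 1 cells, 105.7, 108 and 105.8 CPM in shTMLHE 2 cells and 63.9, 69.6 and 63.7 CPM in CCNE1 cells. Control cells had 49.7, 50.8 and 51.3 CPM. The shTMLHE 2 libraries stood above all others, and the shTMLHE 1 and CCNE1 libraries overlapped. RRM2 was higher with CCNE1 (log2 0.38 ± 0.06, edgeR adjusted p = 4.49e-06) and 1.62-fold higher again with shTMLHE 2 than in CCNE1 cells (log2 0.70 ± 0.06, edgeR adjusted p = 1.2e-13). With shTMLHE 1 its log2 difference was -0.07 ± 0.06 (edgeR adjusted p = 0.345), which became 0.33 with library totals and -0.16 after GC correction, past the threshold in both fits. The shTMLHE 2 change was 1.22 with library totals and 0.40 after GC correction. About 20.2% of the exon bases of RRM2 are shared with AC007240.1 on the same strand, and such reads cannot be assigned with certainty.

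The ratio of RRM2 to RRM1 within a library does not depend on the scaling factor of that library, though it does on GC correction, which acts on each gene. Per kilobase of exon it averaged 0.512 ± 0.0240 in shTMLHE 1 cells, 0.643 ± 0.0212 in shTMLHE 2 cells, 0.370 ± 0.0136 in CCNE1 cells and 0.481 ± 0.0146 in control cells (SD, n = 3 each). The small subunit's transcript was therefore scarcest, relative to the large one, in CCNE1 cells, and the 3 CCNE1 ratios (0.363, 0.385 and 0.361) lay below every other library. After GC correction the rise of RRM2 with CCNE1 was again smaller than that of RRM1 (log2 0.27 and 0.54). RRM2B, which encodes the p53-inducible alternative small subunit, was not among the 9. It had 9.31, 8.02 and 7.57 CPM in shTMLHE 1 cells, 11.1, 12.7 and 11.4 CPM in shTMLHE 2 cells and 4.63, 4.24 and 3.93 CPM in CCNE1 cells, and averaged 4.15 ± 0.810 CPM in control cells. RRM2B rose with each hairpin relative to CCNE1 cells, by log2 0.96 ± 0.18 with shTMLHE 1 and 1.46 ± 0.18 with shTMLHE 2 (edgeR adjusted p = 1.74e-05 and 1.98e-09). After GC correction these values were 0.34 and 0.24, neither past the threshold.

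DUT, at chr15:48331011-48343373, encodes the dUTPase that hydrolyses dUTP to dUMP in nuclear and mitochondrial forms, which gene counts do not separate. Its levels were 33.1, 37.1 and 36.1 CPM in shTMLHE 1 cells and 49.8, 53.4 and 51.3 CPM in shTMLHE 2 cells, against 110.6, 107 and 102.6 CPM in CCNE1 cells. Control cells had 64.6, 62.8 and 62.4 CPM. No group overlapped another, and both hairpin groups lay below control. DUT was 1.69-fold higher in CCNE1 than in control cells (log2 0.75 ± 0.06, edgeR adjusted p = 3.01e-13). It was 3.01-fold lower with shTMLHE 1 than in CCNE1 cells (log2 -1.59 ± 0.06, edgeR adjusted p = 1.58e-23) and 2.07-fold lower with shTMLHE 2 (log2 -1.05 ± 0.06, edgeR adjusted p = 6.59e-19). Among genes within 1 percentage point of its GC content the median log2 change was 0.16 with shTMLHE 1 and 0.45 with shTMLHE 2, so DUT moved against genes of like composition. The shTMLHE 2 fall was -0.52 with library totals and -1.40 after GC correction. The shTMLHE 2 level set against control (log2 -0.30 ± 0.06) turned to 0.21 with library totals and was -0.82 after GC correction. Of the exon bases of DUT, 14.5% are shared with AC023355.1 on the opposite strand.

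TYMS, at chr18:657604-673578, encodes thymidylate synthase, which methylates dUMP to dTMP and is the target of fluoropyrimidine drugs. Its levels were 34.2, 29.3 and 34.3 CPM in shTMLHE 1 cells, 39.4, 36.8 and 40.6 CPM in shTMLHE 2 cells and 44.4, 47.3 and 53.1 CPM in CCNE1 cells. Control cells had 45.0, 48.5 and 51.2 CPM. The CCNE1 and control libraries overlapped, and the hairpin libraries lay below both. The log2 difference between CCNE1 and control cells was 0.00 ± 0.08 (edgeR adjusted p = 0.973). TYMS fell relative to CCNE1 cells by 0.57 ± 0.08 on the log2 scale with shTMLHE 1 (edgeR adjusted p = 1.17e-07) and by 0.31 ± 0.08 with shTMLHE 2 (edgeR adjusted p = 0.000586). The first missed the threshold with library totals (log2 -0.17). The second turned to 0.22 with library totals and missed the threshold after GC correction (log2 -0.14). Of the exon bases of TYMS, 39.2% lie opposite ENOSF1 and 7.41% opposite TYMSOS. ENOSF1 had 7 to 38 counts in each library, against 529 to 959 for TYMS.

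The ratio of TYMS to DUT per kilobase averaged 1.38 ± 0.186 in shTMLHE 1 cells, 1.13 ± 0.0879 in shTMLHE 2 cells, 0.674 ± 0.0879 in CCNE1 cells and 1.13 ± 0.0920 in control cells. The 3 CCNE1 ratios (0.597, 0.656 and 0.769) lay below those of all other libraries. Whether a ratio lies above or below 1 depends on the exon lengths used, since the mean CPM of TYMS was below that of DUT in every group.

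TK1, at chr17:78174075-78187233 on the minus strand, encodes the cytosolic thymidine kinase of S phase cells and was the most abundant of the 9 transcripts per kilobase in every group. Its levels were 585, 599.9 and 631 CPM in shTMLHE 1 cells and 388, 397 and 389 CPM in shTMLHE 2 cells, against 979.5, 977 and 988 CPM in CCNE1 cells. Control cells had 762, 746 and 736 CPM, and no group overlapped another. TK1 was 1.31-fold higher in CCNE1 than in control cells (log2 0.39 ± 0.03, edgeR adjusted p = 5.02e-13). It fell relative to CCNE1 cells by 0.70 ± 0.03 on the log2 scale with shTMLHE 1 and by 1.33 ± 0.03 with shTMLHE 2 (edgeR adjusted p = 2.61e-21 and 1.2e-30). TK1 transcripts are GC-rich (62.8%), and genes within 1 point of that had a median log2 change of -0.42 with shTMLHE 1 and -1.13 with shTMLHE 2. After GC correction the TK1 change was -0.10 with shTMLHE 1, still past the threshold, and -0.06 with shTMLHE 2, no longer past it (edgeR adjusted p = 0.0849). With library totals the change was -0.30 with shTMLHE 1 and -0.80 with shTMLHE 2.

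DCK, at chr4:70992538-71030914, encodes deoxycytidine kinase, which also activates cytarabine and gemcitabine. Its levels were 33.0, 31.1 and 34.0 CPM in shTMLHE 1 cells, 51.5, 56.3 and 59.3 CPM in shTMLHE 2 cells and 31.7, 28.7 and 33.8 CPM in CCNE1 cells. Control cells had 21.95, 19.4 and 21.0 CPM, below all other groups. The shTMLHE 2 libraries stood above the rest, and the shTMLHE 1 and CCNE1 libraries overlapped. DCK was 1.51-fold higher in CCNE1 than in control cells (log2 0.59 ± 0.09, edgeR adjusted p = 1.22e-06) and 1.78-fold higher with shTMLHE 2 than in CCNE1 cells (log2 0.83 ± 0.08, edgeR adjusted p = 8.29e-12). With shTMLHE 1 the log2 difference was 0.06 ± 0.08 (edgeR adjusted p = 0.539). DCK transcripts are poor in GC (38.8%), and genes within 1 point of that had a median log2 change of 0.46 with CCNE1 and 1.06 with shTMLHE 2. After GC correction the DCK change was 0.20 with CCNE1 (edgeR adjusted p = 0.0798) and -0.02 with shTMLHE 2 (edgeR adjusted p = 0.862), so neither call held. With shTMLHE 1 the value was 0.46 with library totals and -0.24 after GC correction, past the threshold in both fits, and with shTMLHE 2 it was 1.36 with library totals. MOB1B shares 6.17% of the exon bases of DCK on the same strand. MOB1B itself rose relative to CCNE1 cells with shTMLHE 1 (log2 1.26 ± 0.09) and shTMLHE 2 (2.13 ± 0.09). Its part in the counts of DCK was not tested.

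TK1 and DCK, the salvage kinases for thymidine and deoxycytidine, moved apart with the hairpins under TMM, but not after GC correction. The ratio of TK1 to DCK per kilobase averaged 32.1 ± 1.38 in shTMLHE 1 cells, 12.2 ± 0.836 in shTMLHE 2 cells, 54.5 ± 4.26 in CCNE1 cells and 62.6 ± 3.72 in control cells. Both hairpin groups lay below every CCNE1 and control library. These kinases have the highest and the lowest GC content of the 9 genes. After GC correction TK1 and DCK stood at log2 -0.10 and -0.24 with shTMLHE 1, and at -0.06 and -0.02 with shTMLHE 2, relative to CCNE1 cells, so the loss of TK1 relative to DCK was absent with shTMLHE 1 and smaller than the SE of DCK (0.08) with shTMLHE 2.

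SAMHD1, at chr20:36889773-36951901 on the minus strand, encodes the hydrolase that degrades deoxynucleoside triphosphates outside S phase. Its levels were 34.4, 33.5 and 35.5 CPM in shTMLHE 1 cells, 35.02, 35.7 and 35.8 CPM in shTMLHE 2 cells, 30.9, 34.4 and 35.1 CPM in CCNE1 cells and 30.9, 29.9 and 33.5 CPM in control cells. Only the shTMLHE 2 and control libraries did not overlap, and SAMHD1 had the smallest spread of the 9 over the 12 libraries (SD of log2 levels 0.0902). Its log2 difference was 0.09 ± 0.08 with CCNE1 against control, 0.04 ± 0.08 with shTMLHE 1 and 0.08 ± 0.08 with shTMLHE 2 against CCNE1 cells, none past the threshold (edgeR adjusted p = 0.375, 0.704 and 0.352). These p-values do not show that its level was equal. With library totals it was called higher with shTMLHE 1 (log2 0.43) and shTMLHE 2 (0.61), and after GC correction it was called lower with shTMLHE 1 (-0.36) and shTMLHE 2 (-0.58), so its direction depends on these settings. Of its exon bases, 10.3% are shared with TLDC2 on the opposite strand.

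CAD, at chr2:27217390-27243943, encodes the fused carbamoyl phosphate synthetase, aspartate transcarbamoylase and dihydroorotase that begin pyrimidine synthesis. Its levels were 268, 292 and 279 CPM in shTMLHE 1 cells and 183, 179 and 178 CPM in shTMLHE 2 cells, against 424, 430.3 and 445 CPM in CCNE1 cells. Control cells had 533, 517 and 522 CPM, and no group overlapped another. CAD fell by 0.28 ± 0.04 on the log2 scale in CCNE1 relative to control cells (edgeR adjusted p = 3.99e-08). It was a further 1.55-fold lower with shTMLHE 1 and 2.41-fold lower with shTMLHE 2 than in CCNE1 cells (log2 -0.63 ± 0.04 and -1.27 ± 0.04, edgeR adjusted p = 3.09e-18 and 3.75e-28). With library totals these falls were -0.24 and -0.74, and after GC correction they were -0.63 and -0.81, each past the threshold. After that correction, the fall with CCNE1 was -0.11, also past it. No other annotated exon overlaps those of CAD.

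DHODH, at chr16:72008588-72027664, encodes the mitochondrial dihydroorotate dehydrogenase, which passes electrons from the pathway to ubiquinone. Its levels were 16.8, 20.2 and 19.6 CPM in shTMLHE 1 cells, 11.5, 11.3 and 11.8 CPM in shTMLHE 2 cells and 18.4, 18.7 and 22.5 CPM in CCNE1 cells. Control cells had 31.9, 29.8 and 37.2 CPM, above every other library. The shTMLHE 1 and CCNE1 libraries overlapped. DHODH was 1.66-fold lower in CCNE1 than in control cells (log2 -0.73 ± 0.11, edgeR adjusted p = 8.68e-07) and 1.72-fold lower with shTMLHE 2 than in CCNE1 cells (log2 -0.79 ± 0.12, edgeR adjusted p = 1.29e-07). With shTMLHE 1 the log2 difference was -0.07 ± 0.11 (edgeR adjusted p = 0.582), and it turned to 0.32 with library totals. The shTMLHE 2 fall was -0.26 with library totals, still past the threshold. The counts behind DHODH were 210 to 457 a library, the lowest of the 9 in all libraries but those of control cells, where DCK had 244 to 315.

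CAD and DHODH thus fell together with CCNE1 while the reductase subunits, DUT, DCK and TK1 rose. The ratio of CAD to DHODH per kilobase averaged 12.2 ± 0.760 in shTMLHE 1 cells, 12.8 ± 0.372 in shTMLHE 2 cells, 18.0 ± 1.56 in CCNE1 cells and 13.2 ± 1.44 in control cells. The 3 CCNE1 ratios (19.0, 18.9 and 16.2) lay above those of all other libraries.

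**Figure D2:**
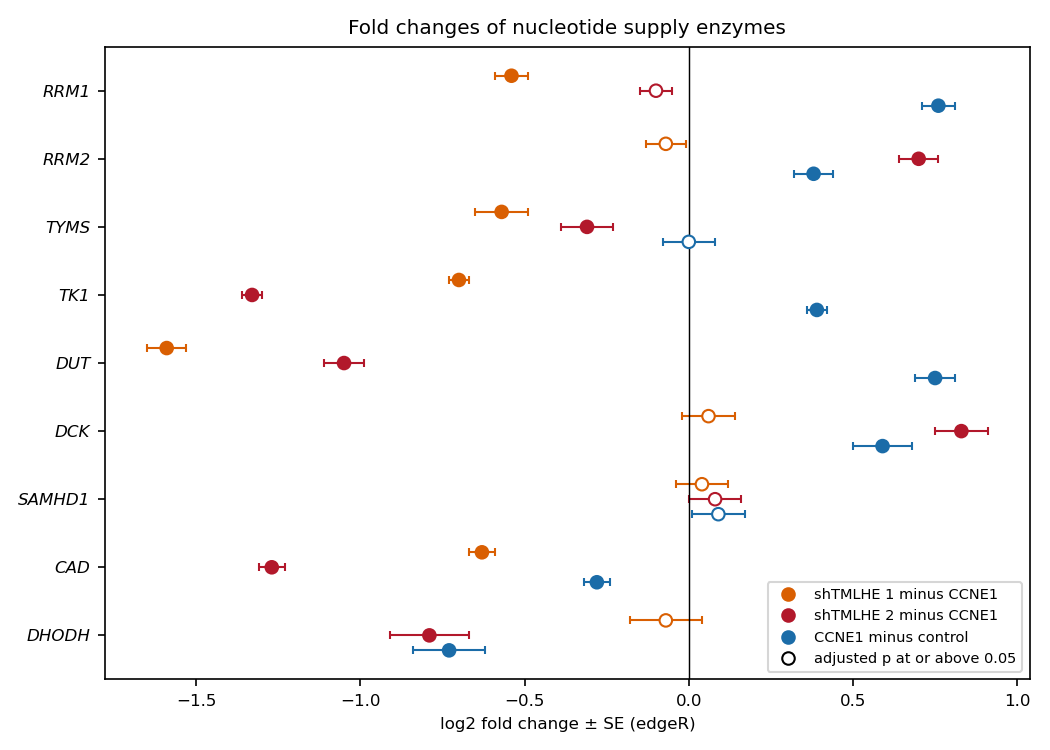
Log2 fold changes (horizontal axis, with SE) of the 9 enzymes for shTMLHE 1 minus CCNE1, shTMLHE 2 minus CCNE1 and CCNE1 minus control. Filled points passed an adjusted p of 0.05 and open points did not. DUT was 0.75 with CCNE1 and -1.59 and -1.05 with the hairpins, while SAMHD1 lay near 0 in all 3 comparisons.

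The hairpins were compared directly, since both groups carry CCNE1. Of the 9 transcripts, 3 were higher and 5 were lower in shTMLHE 1 than in shTMLHE 2 cells (60.3% of all genes changed, 31.3% higher and 29% lower). TK1 (log2 0.63 ± 0.03), CAD (0.63 ± 0.04) and DHODH (0.71 ± 0.11) were higher in shTMLHE 1 cells. RRM1 (-0.44 ± 0.05), RRM2 (-0.76 ± 0.06), TYMS (-0.26 ± 0.08), DUT (-0.54 ± 0.06) and DCK (-0.77 ± 0.08) were lower. TK1, CAD and DHODH were thus lowest with shTMLHE 2, whereas DUT and TYMS were lowest with shTMLHE 1. After GC correction, the difference in TK1 was -0.04 and that in RRM1 was -0.09, neither past the threshold. The differences in CAD (0.18), DHODH (0.47), DUT (-0.23) and DCK (-0.23) shrank but passed, and SAMHD1 was called higher in shTMLHE 1 cells (0.23). The difference in TYMS lost its call without the second shTMLHE 1 library (log2 -0.18, edgeR adjusted p = 0.0805).

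Relative to control, 3 of the 9 were higher and 5 lower in shTMLHE 1 cells (68.7% of all genes changed, 35.3% higher and 33.4% lower), and 4 were higher and 5 lower in shTMLHE 2 cells (78.1% changed, 39% higher and 39.1% lower). RRM1, RRM2 and DCK stood above control in shTMLHE 1 cells (log2 0.22 ± 0.05, 0.31 ± 0.06 and 0.65 ± 0.09), and so they did in shTMLHE 2 cells (0.66 ± 0.05, 1.08 ± 0.06 and 1.42 ± 0.09). TYMS, TK1, DUT, CAD and DHODH stood below control in shTMLHE 1 cells (-0.56 ± 0.08, -0.31 ± 0.03, -0.84 ± 0.06, -0.91 ± 0.04 and -0.80 ± 0.11). In shTMLHE 2 cells their values were -0.31 ± 0.08, -0.93 ± 0.03, -0.30 ± 0.06, -1.54 ± 0.04 and -1.51 ± 0.11. After GC correction TK1 stood above control instead (0.41 with shTMLHE 1 and 0.45 with shTMLHE 2), and neither RRM1 (-0.10 and 0.00) nor DCK (-0.04 and 0.18) passed with either hairpin. RRM2 with shTMLHE 1 (0.12) and TYMS with shTMLHE 2 (-0.03) did not pass either. With library totals TYMS and DUT stood above control in shTMLHE 2 cells (0.20 and 0.21), whereas DUT was -0.82 there after GC correction. CAD and RRM2 with shTMLHE 2 were -0.93 and 0.67, and TYMS with shTMLHE 1 was -0.32, after that correction, each past the threshold. SAMHD1 passed in shTMLHE 2 cells only narrowly (log2 0.18 ± 0.08, edgeR adjusted p = 0.0451), and 6 of the 12 fits that left out a library lost that call. Its value in shTMLHE 2 cells was 0.69 with library totals and -0.66 after GC correction, and in shTMLHE 1 cells 0.51 and -0.44, all past the threshold, so no direction against control can be given for it.

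Levels of different genes were ordered per length, in CPM per kilobase of exon. These lengths count every annotated exon base of a gene, whichever transcripts were expressed, so the order depends on them. In CPM without length, DCK lay below SAMHD1 in control cells (means of 20.8 and 31.4) and above SAMHD1 in shTMLHE 2 cells (55.7 and 35.5). TK1 had 325.3 ± 12.7 CPM per kilobase in shTMLHE 1 cells, 210.3 ± 2.44 in shTMLHE 2 cells, 527.5 ± 3.13 in CCNE1 cells and 402 ± 7.01 in control cells, and stood first in all. CAD was second except in shTMLHE 2 cells, where RRM1 (31.2 ± 0.686 CPM per kilobase) stood above CAD (21.4 ± 0.353). SAMHD1 and DHODH shared the lowest places, with 3.06 ± 0.0890 and 2.73 ± 0.260 in shTMLHE 1 cells, 3.16 ± 0.0391 and 1.67 ± 0.0343 in shTMLHE 2 cells, 2.97 ± 0.200 and 2.87 ± 0.331 in CCNE1 cells, and 2.79 ± 0.167 and 4.76 ± 0.549 in control cells. The order of these 2 genes was within their spread in CCNE1 cells, as was that of RRM1 (19.8 ± 0.903) and TYMS (19.5 ± 1.25) in control cells. In shTMLHE 1 cells DCK (10.1 ± 0.462) and DUT (9.65 ± 0.571) were likewise not apart, nor were TYMS (13.2 ± 1.17) and RRM2 (11.8 ± 0.937). In shTMLHE 2 cells the spreads of DCK (17.3 ± 1.21) and TYMS (15.8 ± 0.781) met. DUT ranked 4 of 9 in CCNE1 cells (29.1 ± 1.09 CPM per kilobase), 5 of 9 in control cells and 7 of 9 in both hairpin groups.

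**Figure D3:**
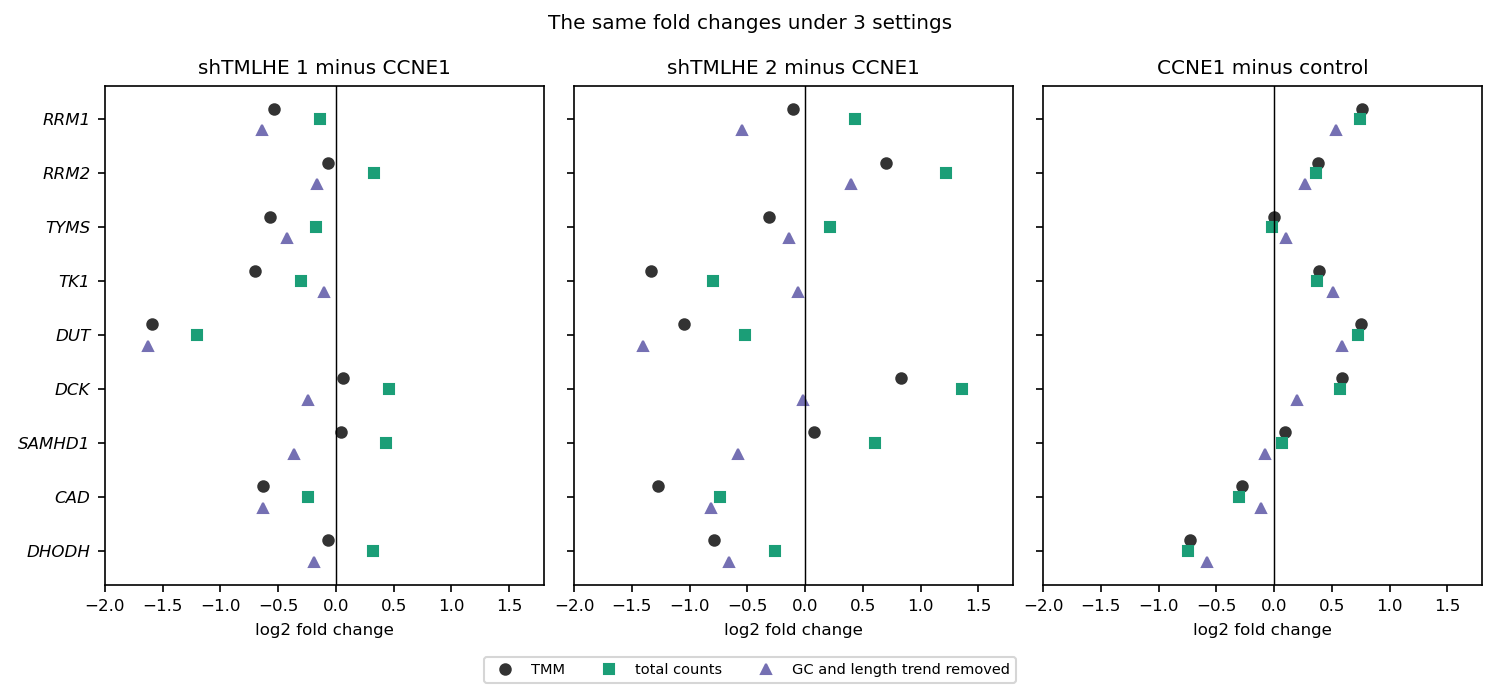
Log2 fold changes of the 9 enzymes (horizontal axes) in 3 comparisons, under TMM scaling (circles), scaling by library totals (squares, total counts) and TMM with GC correction (triangles, GC and length trend removed). DCK with shTMLHE 2 was 0.83, 1.36 and -0.02 under these 3 settings, whereas DUT, TK1 and CAD were below 0 with both hairpins under all 3.

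Scaling by library totals moved the median of all genes by 0.39 with shTMLHE 1 and by 0.53 with shTMLHE 2 on the log2 scale, and raised the share of calls that were higher to 75.9% and 70.7%, against 50% and 50.4% under TMM. Over the 9 enzymes and the other genes named here, it raised each log2 value by 0.38 to 0.40 with shTMLHE 1 and by 0.52 to 0.53 with shTMLHE 2 relative to CCNE1 cells, and moved values of CCNE1 against control by -0.02 to -0.01. In each hairpin comparison TK1, DUT and CAD were below 0 under TMM, library totals and the fit with GC correction, although the TK1 change with shTMLHE 2 did not pass the threshold in the last.

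The other genes of deoxynucleotide metabolism were taken from a list of 15, of which 14 were tested. In CCNE1 against control cells, 4 rose and 3 fell. In shTMLHE 1 against CCNE1 cells 2 rose and 11 fell, with a median log2 change of -0.72, and in shTMLHE 2 cells 2 rose and 9 fell, with a median of -0.91. Of all tested genes, 44.2% changed with CCNE1, 60.7% with shTMLHE 1 and 73% with shTMLHE 2. The numbers called with CCNE1 and shTMLHE 2 are near these shares and are not themselves a result. DTYMK, which phosphorylates dTMP, fell by 0.38 ± 0.05 with shTMLHE 1 and by 1.30 ± 0.05 with shTMLHE 2, but the first of these changed sign with library totals (0.02) and after GC correction (0.07), and the second was -0.33 after GC correction.

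Other genes of that list act on existing nucleotides. DCTPP1, which hydrolyses dCTP and its damaged forms, fell by 1.38 ± 0.06 on the log2 scale with shTMLHE 1 and by 1.24 ± 0.05 with shTMLHE 2. NUDT1, which removes oxidised purine triphosphates, fell by 1.17 ± 0.08 with shTMLHE 1 and by 1.29 ± 0.08 with shTMLHE 2. TYMP, the thymidine phosphorylase, averaged 11.4 CPM with shTMLHE 1 and 6.60 CPM with shTMLHE 2, against 30.1 CPM in CCNE1 cells (log2 -1.40 ± 0.11 and -2.19 ± 0.11). CDA, the cytidine deaminase, was 2.28-fold lower with CCNE1 than in control cells and fell by a further 0.98 ± 0.09 with shTMLHE 1 and 1.10 ± 0.08 with shTMLHE 2. NT5C, a cytosolic deoxynucleotidase, fell by 0.82 ± 0.08 with shTMLHE 1 and by 1.89 ± 0.08 with shTMLHE 2. After GC correction NT5C with shTMLHE 1 (-0.14) and CDA with shTMLHE 2 (-0.18) no longer passed. CDA and NUDT1 fell by 0.47 and 0.72 with shTMLHE 1 in that fit, and DCTPP1, NUDT1, NT5C and TYMP by 0.52, 0.35, 0.35 and 1.25 with shTMLHE 2. With library totals CDA fell by 0.59 with shTMLHE 1 and by 0.57 with shTMLHE 2. Of the exon bases of NT5C 60.7%, and of DCTPP1 42.1%, lie opposite other genes, so their reads are uncertain. ODF3B and SCO2 share 20.7% of the exon bases of TYMP on the same strand, so its reads are uncertain too.

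Of 12 tested further pyrimidine genes, 5 rose and 2 fell with CCNE1, 2 rose and 7 fell with shTMLHE 1, and 4 rose and 4 fell with shTMLHE 2. Of all tested genes, 44.2% changed with CCNE1 and 60.7% with shTMLHE 1. With shTMLHE 2 both counts are near the shares of all genes (36.8% higher and 36.2% lower) and are not themselves a result. CMPK1, the UMP and CMP kinase, rose with CCNE1 (log2 1.00 ± 0.08) and again with shTMLHE 1 (0.64 ± 0.07) and shTMLHE 2 (1.23 ± 0.07), though after GC correction by only 0.58, 0.22 and 0.24 in the same order. NME1, a nucleoside diphosphate kinase, fell by 1.18 ± 0.05 with shTMLHE 1 and by 1.12 ± 0.05 with shTMLHE 2. The readthrough gene NME1-NME2 shares 18.6% of its exon bases on the same strand, and such reads cannot be assigned with certainty. CTPS1, which makes CTP from UTP, differed in sign between the hairpins, at -0.45 ± 0.04 with shTMLHE 1 and 0.76 ± 0.04 with shTMLHE 2, but the first was -0.05 with library totals and the second -0.03 after GC correction, neither past the threshold, while the first was -0.90 after GC correction. UPP1, the uridine phosphorylase, rose with CCNE1 (0.70 ± 0.06) and fell by 1.06 ± 0.05 with shTMLHE 2. With shTMLHE 1 its change was -0.26 ± 0.05, which turned to 0.14 with library totals. Of the uridine kinases, UCK1 fell by 1.04 ± 0.06 with shTMLHE 2, and UCK2 fell by 0.39 ± 0.05 with shTMLHE 1. UCK1 was -0.23 after GC correction and UCK2 was 0.00 with library totals in the same comparisons.

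Purine genes and carriers of nucleosides were counted from their own lists. Of all tested genes, 44.2% changed with CCNE1, 60.7% with shTMLHE 1 and 73% with shTMLHE 2, and the counts should be read beside these shares. Of 19 tested purine genes, 8 rose and 5 fell with CCNE1, 2 rose and 12 fell with shTMLHE 1, and 6 rose and 10 fell with shTMLHE 2. IMPDH2, the rate-limiting enzyme of guanine nucleotide synthesis, averaged 453.9 CPM with shTMLHE 1 and 414.8 CPM with shTMLHE 2, against 1118 CPM in CCNE1 cells (log2 -1.30 ± 0.03 and -1.43 ± 0.03). APRT, which salvages adenine, fell by 1.57 ± 0.04 with shTMLHE 1 and by 1.97 ± 0.04 with shTMLHE 2 (-0.95 and -0.65 after GC correction). ADA, the adenosine deaminase, fell by 1.85 ± 0.11 with shTMLHE 1 and by 1.76 ± 0.10 with shTMLHE 2. ADK, the adenosine kinase, rose with CCNE1 (log2 0.57 ± 0.05, or 0.29 after GC correction), whereas ADSSL1, an adenylosuccinate synthase, fell by 1.42 ± 0.16 with CCNE1 and by a further 1.37 ± 0.19 with shTMLHE 1 and 1.19 ± 0.18 with shTMLHE 2. GUK1, the guanylate kinase, fell by 0.69 ± 0.04 with shTMLHE 1 and by 1.27 ± 0.04 with shTMLHE 2 (-0.38 and -0.35 after GC correction). Of 4 tested nucleoside carriers, 1 rose and 1 fell with CCNE1, 1 rose and 3 fell with shTMLHE 1, and 1 rose and 2 fell with shTMLHE 2. SLC29A1, the equilibrative transporter through which nucleosides and many nucleoside drugs enter cells, had 19.5, 19.2 and 19.9 CPM with shTMLHE 1 and 38.8, 38.7 and 38.5 CPM with shTMLHE 2, against 115.6, 112.5 and 113.9 CPM in CCNE1 cells. Its fall was 5.84-fold with shTMLHE 1 and 2.95-fold with shTMLHE 2 (log2 -2.55 ± 0.06 and -1.56 ± 0.06, edgeR adjusted p = 6.7e-30 and 6.13e-25), larger under TMM than the fall of any of the 9 enzymes with the same hairpin. After GC correction it was -2.37 with shTMLHE 1 and -0.97 with shTMLHE 2. SLC29A2 fell by 1.15 ± 0.07 with shTMLHE 1 and by 0.92 ± 0.07 with shTMLHE 2, but after GC correction these were -0.69 and 0.13. SLC29A3, a carrier of lysosomes and mitochondria, fell by 0.65 ± 0.23 with shTMLHE 1, a call lost with library totals (-0.26) and after GC correction (-0.46), and its value with shTMLHE 2 was -0.48 ± 0.22 (edgeR adjusted p = 0.0539), which was 0.05 with library totals and 0.21 after GC correction. The carrier that rose with both hairpins was SLC28A3, a concentrative nucleoside transporter, which is named here because of its values. It had 0.712, 1.60 and 1.51 CPM with shTMLHE 1 and 1.48, 2.83 and 1.74 CPM with shTMLHE 2, against 0.149, 0.110 and 0.317 CPM in CCNE1 cells, where it rested on 2, 2 and 5 counts. Its log2 changes of 2.69 ± 0.60 and 3.35 ± 0.58 (edgeR adjusted p = 0.00019 and 2.8e-06) were 2.52 and 2.79 after GC correction. In CCNE1 against control cells SLC28A3 was -1.59 with library totals (edgeR adjusted p = 0.0529) and -1.85 after GC correction (edgeR adjusted p = 0.0307). The rises with the hairpins thus start from CCNE1 levels that lay below control.

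**Figure D4:**
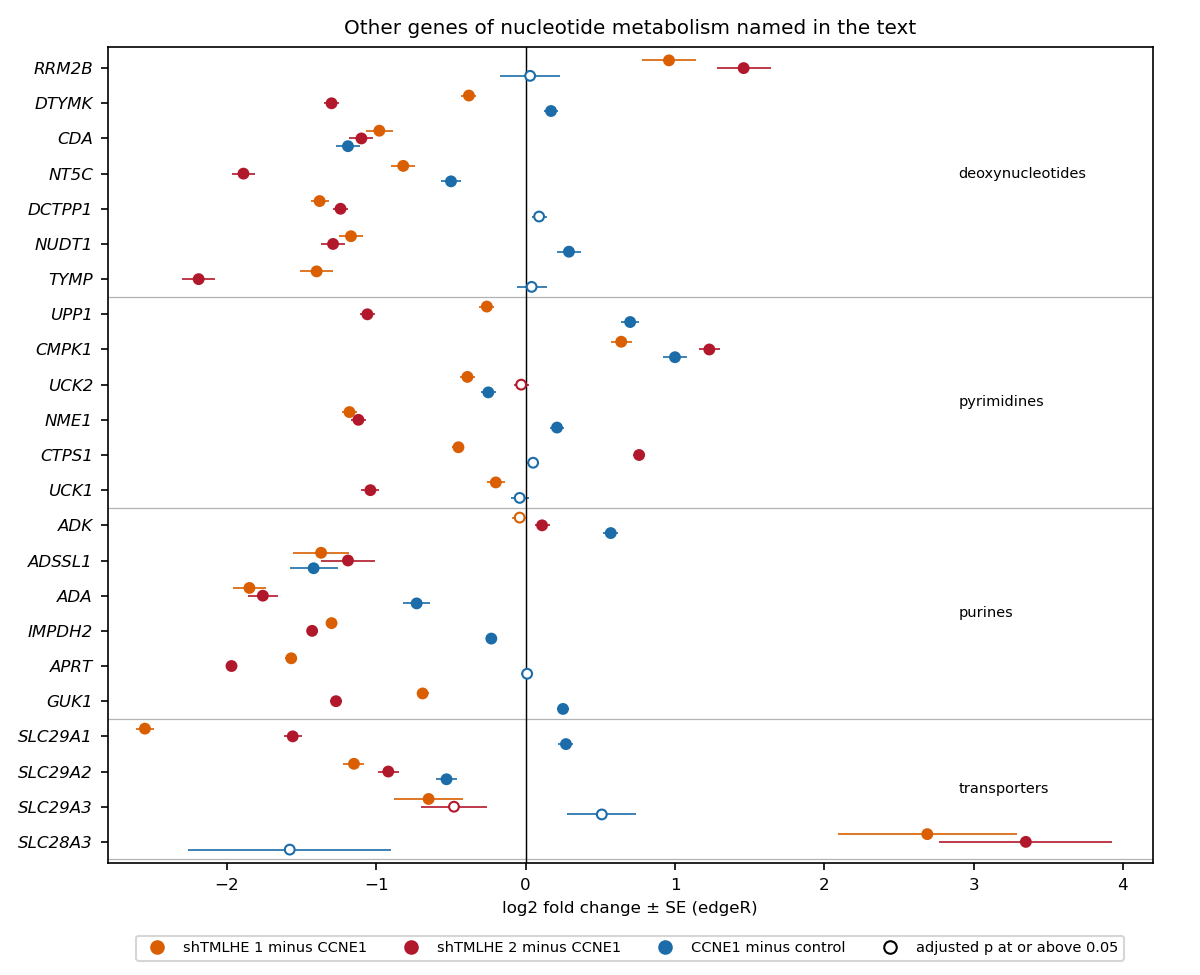
Log2 fold changes (horizontal axis, with SE) of other genes of deoxynucleotide, pyrimidine and purine metabolism and of nucleoside carriers, for shTMLHE 1 minus CCNE1, shTMLHE 2 minus CCNE1 and CCNE1 minus control. Filled points passed an adjusted p of 0.05. RRM2B, CMPK1 and SLC28A3 were above 0 with both hairpins, and SLC29A1 reached -2.55 with shTMLHE 1.

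In bulk RNA a larger share of cells in S phase and more RNA per cell cannot be told apart, so transcripts of S phase and proliferation are set beside these results. Of 24 such genes, 20 rose and 1 fell with CCNE1 (median log2 0.49), 4 rose and 14 fell with shTMLHE 1 (median -0.46), and 9 rose and 12 fell with shTMLHE 2 (median -0.21). Of all tested genes, 44.2%, 60.7% and 73% changed in these comparisons. The summed level of the 24 genes was 2959 to 2971 CPM in shTMLHE 1 libraries, 2844 to 2930 CPM in shTMLHE 2 libraries, 4370 to 4408 CPM in CCNE1 libraries and 3400 to 3444 CPM in control libraries. Both hairpin groups lay below control by this sum, but above it per library total, where the sums were 3284 to 3314, 3489 to 3588, 3723 to 3734 and 2936 to 2960 CPM in the same order of groups. Of the 9 enzymes, 5 also rose with CCNE1 (RRM1, RRM2, TK1, DUT and DCK), although DCK lost its call after GC correction. CAD and DHODH fell, and TYMS and SAMHD1 did not pass. With shTMLHE 2, RRM2 and DCK rose under TMM (0.70 and 0.83) while the median of the S phase genes was negative under TMM. After GC correction RRM2 was 0.40 and DCK -0.02. The sign of that median depends on the scaling too, since library totals raised shTMLHE 2 values of the genes named here by 0.52 to 0.53. The part of the S phase genes in the enzymes' changes was not tested.

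The genes whose levels over the 12 libraries lay nearest to each enzyme were found among 11684 well-counted genes by the root mean square distance between centred log2 levels. The nearest were ACAT1 for RRM1 (distance 0.0658), DLAT for RRM2 (0.0695), ABHD12 for TYMS (0.0825), MELTF for TK1 (0.0426), RPL34 for DUT (0.138), YME1L1 for DCK (0.0661), GID8 for SAMHD1 (0.0547), RHOC for CAD (0.0420) and DGKA for DHODH (0.124). The second nearest were GHITM, NUP160, GDE1, FLOT2, RPL31, PAK2, DNMT1, EIF3D and SIL1 in the same order of enzymes. The nearest and second nearest genes to DUT were genes of ribosomal proteins, but the third, UQCRH (0.1395), was not. The nearest gene to DUT was also more distant than that of any other enzyme. RPL34 fell by 1.29 ± 0.04 with shTMLHE 1 and by 0.87 ± 0.04 with shTMLHE 2 on the log2 scale. Those falls follow from its choice by likeness to DUT and are no separate result. Ribosomal protein genes held 7.43 to 7.79% of counts in shTMLHE 1 libraries, 7.77 to 7.90% in shTMLHE 2 libraries, 14.05 to 14.5% in CCNE1 libraries and 12.5 to 13.1% in control libraries, and their part in the values of DUT was not tested. Among the 9 themselves, RRM2 and DCK lay nearest to each other (0.178), followed by CAD and DHODH (0.240).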

How the data were processed

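The authors deposited whole-number counts per gene and FPKM for 58735 genes. The submitters' processing notes name STAR 2.6.1, DESeq2 and the build GRCh38. Neither the counting program nor how it handled strand and shared reads is given in the sources used here, so reads of a gene and of an antisense or overlapping gene cannot be told apart. The gene lengths in the deposited table equal the exon lengths of GENCODE 29 for 100% of genes. The FPKM deposited by the authors correspond to a library size of 0.819 to 1.21 times the count total and served in an alternative only.

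Counts were tested with edgeR 4.0.16 in R 4.3.3. filterByExpr kept 15378 genes and left out 43357. TMM factors and the quasi-likelihood model (robust, a mean for each group) used all 12 libraries, with 8 residual degrees of freedom. P-values of the 6 comparisons were adjusted by Benjamini and Hochberg's method over every gene tested, with a threshold of 0.05. CPM are TMM-scaled. GC correction took out, in each library, a smooth trend of log counts on the GC content and length of genes. The main fit was also run on simulated counts in which a small share of genes changed, as many up as down. Those counts held no GC trend and no shift in composition, so they cannot address the dependence on scaling and GC correction. The depth was 14054101 to 21457503 counts per library, and the 9 transcripts had 210 to 17765 counts each. Replicates differed by more than sampling noise (chi-square per degree of freedom 2.12 to 5.79). The labels do not say what a replicate number shares.

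Alternatives were other scalings (RLE, upper quartile, library totals), GC correction, no filter or at least 10 counts in every library, DESeq2 1.42.0, limma-voom and limma-trend (limma 3.58.1) on log2(FPKM + 0.1) and log2(FPKM + 1), fits of only the groups compared, a replicate block, each library left out, an adjusted p under 0.01 and at least 1.5-fold. Besides the 9 members, named genes are RRM2B, DTYMK and SLC29A1 by choice, SLC28A3 after its values were seen, up to 3 genes (4 of S phase) per list and comparison, taken by smallest p among those called whose log2 CPM averaged at least 1, and the 2 genes nearest each member, and 1 gene that this rule names is not reported here. The 9 transcripts and the gene lists were chosen with earlier results of these data known.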

Additional observations from a re-analysis of the deposited data

Results flagged for a closer look

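The effect of shTMLHE 1 relative to CCNE1 cells differed from that of shTMLHE 2 for 8 of the 9 transcripts in a direct test of shTMLHE 1 minus shTMLHE 2 (edgeR), a comparison in which 60.3% of all genes differed. The difference in log2 change was -0.44 for RRM1, -0.76 for RRM2, -0.26 for TYMS, 0.63 for TK1, -0.54 for DUT, -0.77 for DCK, 0.63 for CAD and 0.71 for DHODH, with adjusted p-values of 2.64e-10, 1.49e-14, 0.00621, 1.04e-19, 1.34e-09, 7.44e-11, 5e-18 and 1.18e-06 in the same order. RRM2 and DCK were higher with shTMLHE 2 than in CCNE1 cells (0.70 and 0.83) and did not pass with shTMLHE 1 (-0.07 and 0.06), and DHODH was lower with shTMLHE 2 (-0.79) and did not pass with shTMLHE 1 (-0.07). Libraries of the hairpin groups also differ in mean GC content, at 51.6 to 51.9% with shTMLHE 1 and 49.9 to 50.04% with shTMLHE 2, and in CCNE1 itself, at 1269 and 847.1 CPM. The part of either in these differences was not tested beyond the fit with GC correction. In that fit the differences in TK1 (-0.04) and RRM1 (-0.09) did not pass the threshold. Those in RRM2, TYMS, DUT, DCK, CAD and DHODH passed with the same sign, but DCK in shTMLHE 2 against CCNE1 cells was -0.02 and did not pass.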

How the results depend on the processing

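Of 648 values of the 9 transcripts with 1 library left out, 636 kept their direction and side of the threshold and none reversed. Of 756 under other alternatives, 696 did so and 20 reversed. All reversals came from library totals or from GC correction, apart from MCM4 with shTMLHE 2 under upper quartile scaling (0.08), and their cause was not tested. With library totals, shTMLHE 1 minus CCNE1 became 0.33 for RRM2, 0.32 for DHODH, 0.02 for DTYMK, 0.14 for UPP1, 0.19 for UCK1 and 0.35 for ADK. Likewise shTMLHE 2 minus CCNE1 became 0.43 for RRM1, 0.22 for TYMS, 0.50 for UCK2, 0.49 for MCM4 and 0.29 for CCNE1. Against control, TK1 became 0.07 with shTMLHE 1, and TYMS and DUT became 0.20 and 0.21 with shTMLHE 2. After GC correction, CCNE1 minus control became -0.19 for CTPS1 and 0.14 for UCK1. The shTMLHE 1 changes became -0.24 for DCK, -0.36 for SAMHD1, 0.07 for DTYMK and 0.16 for UCK1. The shTMLHE 2 changes became -0.02 for DCK, -0.58 for SAMHD1, -0.03 for CTPS1, -0.44 for ADK, 0.13 for SLC29A2 and 0.15 for CCNE1. In shTMLHE 1 minus shTMLHE 2, TK1 became -0.04 and SAMHD1 0.23. Against control, shTMLHE 1 values became -0.10 for RRM1, 0.41 for TK1, -0.04 for DCK and -0.44 for SAMHD1, and shTMLHE 2 values became 0.00 for RRM1, 0.45 for TK1 and -0.66 for SAMHD1.

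Counts of changed members moved by more than 1.5 times for shTMLHE 1 minus CCNE1, to 8 with library totals (4 higher, 4 lower) and 8 after GC correction (none higher, 8 lower), against 5. In the same fits 10334 genes (75.9% of them higher) and 8724 genes (44.6% higher) changed, against 9338. Requiring at least 1.5-fold left 4 members and 2593 genes for CCNE1 minus control, 3 and 5763 for shTMLHE 1 minus CCNE1, 5 and 5488 for shTMLHE 1 minus shTMLHE 2, and 4 and 7573 for shTMLHE 1 minus control. Leaving out each library gave 7 members in every fit for CCNE1 minus control, 5 for shTMLHE 1 and 7 to 8 for shTMLHE 2 minus CCNE1, where 6168 to 6778, 8629 to 9447 and 10661 to 11371 genes changed. RRM1 with shTMLHE 2 passed in 5 of those 12 fits (log2 -0.12 to -0.08, edgeR adjusted p 0.0457 to 0.163). Same-numbered libraries did not deviate together (correlations -0.07 to 0.07 in 18 pairs, none over 0.1). Differently numbered pairs ranged from -0.108 to 0.138. No shared deviation by number was seen, but this cannot show that the samples were unpaired. With a replicate block 6624, 9231 and 11123 genes changed in the first 3 comparisons, with 7, 5 and 7 members, and no call of a member changed.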

Other observations

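The S phase genes did not move as 1 group with the hairpins. CDT1, which loads the replicative helicase, averaged 151.6 CPM with shTMLHE 1 and 94.7 CPM with shTMLHE 2, against 535.2 CPM in CCNE1 cells (log2 -1.82 ± 0.04 and -2.50 ± 0.04), or -1.35 and -1.24 after GC correction. The helicase subunit MCM5 fell by 0.95 ± 0.04 with shTMLHE 1 and by 2.08 ± 0.04 with shTMLHE 2, MCM2 by 0.85 ± 0.04 and by 1.42 ± 0.04, and MCM7 by 0.75 ± 0.03 and by 1.23 ± 0.03. After GC correction MCM2 was -0.75 and MCM7 -0.58 with shTMLHE 2. MCM4, another subunit, fell by 0.40 ± 0.04 with shTMLHE 1, and its log2 difference with shTMLHE 2 was -0.03 ± 0.04, which became 0.49 with library totals and -0.23 after GC correction, past the threshold in both fits. With library totals the shTMLHE 1 value of MCM4 was -0.01, no longer past it. MKI67, the proliferation marker, rose with shTMLHE 1 (log2 0.45 ± 0.04) and shTMLHE 2 (0.47 ± 0.04) but passed with neither after GC correction (0.07 and 0.06), and UHRF1, which maintains DNA methylation at replication, rose with shTMLHE 2 (0.35 ± 0.04, or 0.69 after GC correction). All of these genes were higher in CCNE1 than in control cells, from 0.15 ± 0.04 for MCM2 (0.30 after GC correction) to 0.68 ± 0.04 for MCM5.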
